A study of Mus musculus with 19 samples.

Results

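Liver tumors labelled MYC/Twist1 were compared with liver tumors labelled MYC across 11958 of the 19486 genes measured. Members were the genes whose symbol is not a bare number and whose value reached 1 or more in 3 or more of the 10 libraries compared, 5 from each group. At the edge of that rule, 292 genes reached 1 in exactly 3 libraries and were kept, and 488 reached 1 in exactly 2 and were left out. The study measured RNA in 19 mouse liver samples of 5 groups, all given as hepatocellular carcinoma (HCC), the main cancer of hepatocytes. MYC_HCC holds the 5 libraries of tumors labelled with MYC alone, and MYC_Twist1_HCC the 5 labelled with MYC and Twist1. All 10 are marked in the labels as re-analysed. Both groups carry the MYC label, so a difference between them is one within MYC tumors. The sources used here do not give the promoter that drives either gene, the mouse strain or the ages. Nor do they say whether the libraries of a group came from separate mice, so p-values measure only the spread between these libraries, which may be technical. RNA came from whole frozen tumor, in which fewer cells of a type and less RNA per cell cannot be told apart.

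MYC is a transcription factor that binds DNA as a dimer with Max and drives genes of ribosome production, nucleotide synthesis and the cell cycle. Twist1 is a transcription factor of the early mesoderm that binds E-boxes, represses E-cadherin and is best known in tumors for epithelial-mesenchymal transition (EMT), the change of epithelial cells to a motile state. Work on mouse liver tumors with both genes asked whether Twist1 makes the tumors spread and draws macrophages through secreted cytokines, among them Ccl2 and Il13.

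The labels and libraries were checked first. Myc (chromosome 15, 61985391 to 61990374 of GRCm38) lay at 158, 180.5, 165, 129 and 166 in MYC_HCC 1 to 5 and 116, 119.99, 134, 153 and 102 in MYC_Twist1_HCC 1 to 5, and the groups overlapped (log2 fold change -0.35, SE 0.16, adjusted p = 0.159 by limma). Twist1 was at most 0.27 in any of the 10 libraries and at most 0.12 in those labelled MYC_Twist1_HCC, below the test's filter. The label is therefore not borne out by Twist1's own values, and every direction below rests on the labels alone. Values are given for MYC_HCC 1 to 5 against MYC_Twist1_HCC 1 to 5, or as the range of each in that order. Hepatocyte identity was present in all 10 libraries: albumin (Alb) lay at 1449.8 to 4480.1 against 724 to 1476, and Hnf4a, a nuclear receptor of hepatocytes, at 68.1 to 114 against 50.3 to 94.6. MYC_HCC 4 stood apart, at -93.02 on the first principal component (39.8% of the variance) against -29.85 for MYC_HCC 5, -12.01 to -6.93 for MYC_HCC 1 to 3 and 18.92 to 37.85 for the MYC_Twist1_HCC libraries. Its mean correlation with its own group was 0.86, against 0.93 to 0.95 for the others. Alpha-fetoprotein (Afp), a fetal liver protein made by many liver tumors, lay at 1951, 1484, 2080.1, 5.55 and 2564 against 1404, 1364, 1785, 2155 and 1719.6. MYC_HCC 4 was the only library of the 10 without a high Afp value. Conversely, Cps1, the first enzyme of the urea cycle, was at 451 in MYC_HCC 4 and at 58.9 to 74.4 in the other 9. The noncoding RNA genes Bc1 and Rn7sk were low in both MYC_HCC 4 (189.76 and 9.17) and MYC_HCC 5 (414 and 3.16), where the other 8 libraries held at least 3989 and 35.7. Where a named gene's call was lost without either of these libraries or without both, that is said beside it, with its adjusted p or a range that holds it.

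Of the 11958 genes, 582 were higher in MYC_Twist1_HCC (4.87%) and 571 lower (4.78%), together 9.64%, by limma on log2(value + 1) at an adjusted p under 0.05. "Rose" and "fell" below mean a call by this test. List counts below are to be read beside these shares of all genes. At an unadjusted p under 0.05, 3409 genes passed. Among the 582 rises and 571 falls called at an adjusted p under 0.05, 358 and 202 were at least 2-fold. At least 4-fold were 90 and 37, and at least 8-fold 25 and 11. The median log2 fold change over all tested genes was -0.039. In 667 genes (5.58%) all 5 MYC_Twist1_HCC values lay above all 5 MYC_HCC values, and in 775 (6.48%) all lay below. The test called 465 of the former and 465 of the latter. Members that passed the filter only through 1 group had to differ: 179 passed only through MYC_Twist1_HCC, 66 of them called higher, and 99 only through MYC_HCC, 37 of them called lower. Of the called genes named below, Apod, Hspb7, Olfr56, Cd163, Cx3cr1 and Itgam passed only through MYC_Twist1_HCC, and Xpo4, Dennd1a, Dda1, Des and Cd4 only through MYC_HCC. The split leaned to rises when each library was scaled by its upper quartile (717 higher and 464 lower). Without MYC_HCC 4 the calls numbered 671 higher and 875 lower, and without MYC_HCC 4 and 5 together 380 and 438. Without MYC_HCC 1 they numbered 363 and 261, without MYC_HCC 5, 328 and 246, without MYC_Twist1_HCC 1, 278 and 195, and without MYC_Twist1_HCC 5, 349 and 283. Leaving out MYC_HCC 3 gave 331 lower and MYC_Twist1_HCC 3 gave 379 lower.

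**Figure D1:**
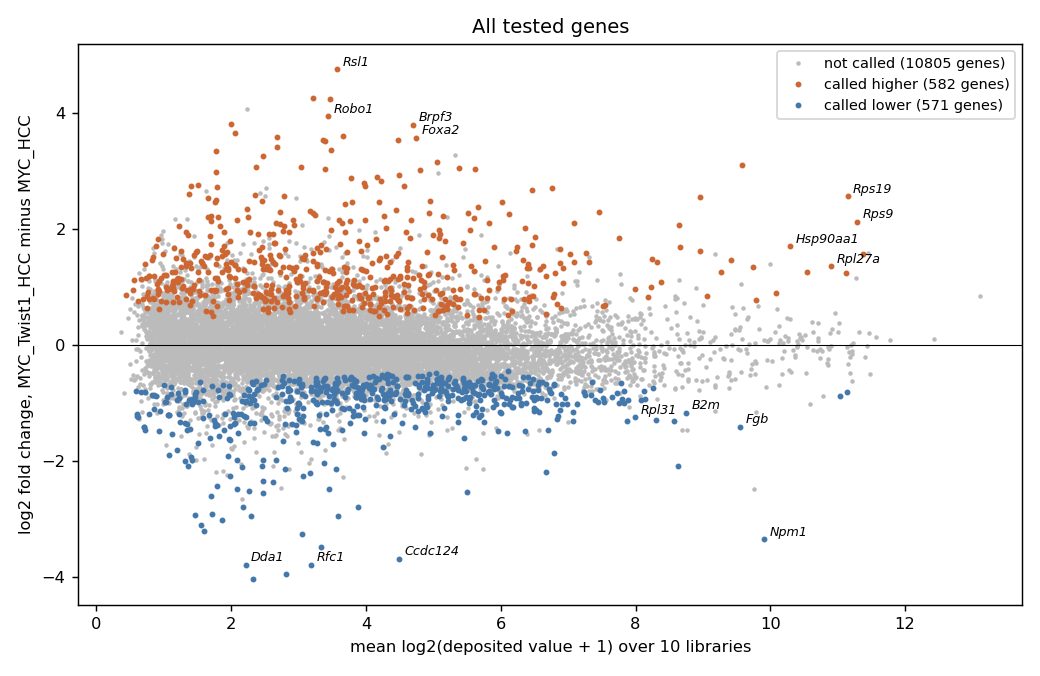
Each point is 1 of the 11958 tested genes, with its mean log2(deposited value + 1) over the 10 libraries on the horizontal axis and its log2 fold change, MYC_Twist1_HCC minus MYC_HCC, on the vertical axis. Orange points are the 582 called higher and blue points the 571 called lower; the named genes at the right include Rps19 and Rps9 above 0 and Npm1 and Fgb below it.

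The largest rise was that of Rsl1, which encodes a KRAB zinc finger repressor of sex-specific liver genes (chromosome 13, 67173182 to 67184044). It lay at 1.75, 0.82, 2.29, 0.96 and 0.91 in MYC_HCC 1 to 5 and 119, 22.9, 69.7, 32.5 and 132 in MYC_Twist1_HCC 1 to 5 (log2 fold change 4.76, SE 0.45, adjusted p = 0.000255). Every MYC_Twist1_HCC library was far above every MYC_HCC library. Robo1, the receptor for Slit guidance cues (chromosome 16, 72308306 to 73046095), lay at 3.22, 0.46, 2.16, 0.44 and 4.59 against 43.8, 18.1, 47.1, 32.3 and 99.6 (log2 fold change 3.95, SE 0.48, adjusted p = 0.00124), with no overlap. Foxa2, a forkhead factor that opens chromatin at liver genes (chromosome 2, 148042877 to 148046969), lay at 9.03, 3.51, 4.45, 16.2 and 5.67 against 171, 84.1, 214, 21.1 and 98.2 (log2 fold change 3.58, SE 0.56, adjusted p = 0.00499). Its lowest MYC_Twist1_HCC library, 4, was close to its highest MYC_HCC library, also 4. Brpf3, a scaffold of the HBO1 histone acetyltransferase complex (chromosome 17, 28801090 to 28839949), lay at 11.6, 2.71, 5.68, 3.64 and 10.4 against 29.6, 860.2, 99.6, 75.9 and 41.4 (log2 fold change 3.80, SE 0.76, adjusted p = 0.0135); library 2 of MYC_Twist1_HCC was far above its other 4. Snora43, a small nucleolar RNA that guides pseudouridylation, lay at 8.71, 2.07, 4.46, 0 and 0.76 against 36.3, 57.3, 39.8, 14.8 and 40.2 (log2 fold change 3.52, SE 0.56, adjusted p = 0.00513).

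In 4 of the 12 largest rises, MYC_Twist1_HCC 1 held the highest value. Gcnt1, an enzyme that branches O-glycans (chromosome 19, 17326141 to 17372844), lay at 3.36, 1.47, 3.31, 0.35 and 0.68 against 449, 68.5, 21.1, 31.7 and 10.9 (log2 fold change 4.26, SE 0.81, adjusted p = 0.0109). Apod, a lipid-binding lipocalin (chromosome 16, 31296192 to 31314808), was at most 0.2 in MYC_HCC and lay at 98.7, 33.5, 8.71, 9 and 1.29 in MYC_Twist1_HCC 1 to 5 (log2 fold change 3.82, SE 0.77, adjusted p = 0.0143). Hspb7, a small heat shock protein of heart muscle (chromosome 4, 141420779 to 141425311), was at most 0.29 in MYC_HCC and at 154, 24.3, 7, 9.47 and 1.19 in MYC_Twist1_HCC (log2 fold change 3.66, SE 0.85, adjusted p = 0.0235). Its call was lost without MYC_HCC 3 (adjusted p = 0.0502) or MYC_HCC 5 (adjusted p = 0.0539), and without MYC_HCC 4 and 5 together (adjusted p = 0.0628). Erbb2, a receptor tyrosine kinase of the EGF receptor family (chromosome 11, 98412470 to 98437716), lay at 1.76, 0.47, 0.26, 0.37 and 3.05 against 187, 28.3, 9.15, 9.27 and 5.95 (log2 fold change 3.42, SE 0.77, adjusted p = 0.0219), and was lost at a pseudocount of 5 (adjusted p = 0.0581). In these 4 genes MYC_Twist1_HCC 1 stood well above its group, and the other 4 libraries were still above all of MYC_HCC.

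The other 3 of the 12 largest rises had calls that hung on few libraries. Srms, a Src-like tyrosine kinase (chromosome 2, 181205562 to 181213185), lay at 0.96, 0.78, 2.26, 0.07 and 0.74 against 87.2, 206, 18.3, 2.62 and 3.18 (log2 fold change 3.59, SE 0.99, adjusted p = 0.0429), and was lost without any 1 library other than MYC_Twist1_HCC 4 or MYC_Twist1_HCC 5 (adjusted p = 0.0557 to 0.105), and without MYC_HCC 4 and 5 together (adjusted p = 0.112). Plekha1, which binds membrane phosphoinositides (chromosome 7, 130865756 to 130913312), lay at 28.5, 0, 0, 17.6 and 20.2 against 69.2, 76.6, 82.03, 78.9 and 69.9 (log2 fold change 3.55, SE 0.92, adjusted p = 0.0359). It was even across MYC_Twist1_HCC but listed at 0 in MYC_HCC 2 and 3, and its call was lost without any 1 library other than MYC_HCC 1, MYC_HCC 4 or MYC_HCC 5 (adjusted p = 0.0528 to 0.075). Olfr56, an olfactory receptor gene whose annotated span covers other genes (chromosome 11, 48978889 to 49135387), was at most 0.17 in MYC_HCC and at 3.43, 35.4, 95.1, 1.82 and 2.6 in MYC_Twist1_HCC (log2 fold change 3.35, SE 0.86, adjusted p = 0.0337), and was lost without MYC_HCC 1, MYC_HCC 2, MYC_HCC 3, MYC_HCC 5 or MYC_Twist1_HCC 2 (adjusted p = 0.0608 to 0.0713), and without MYC_HCC 4 and 5 together (adjusted p = 0.0799).

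**Figure D2:**
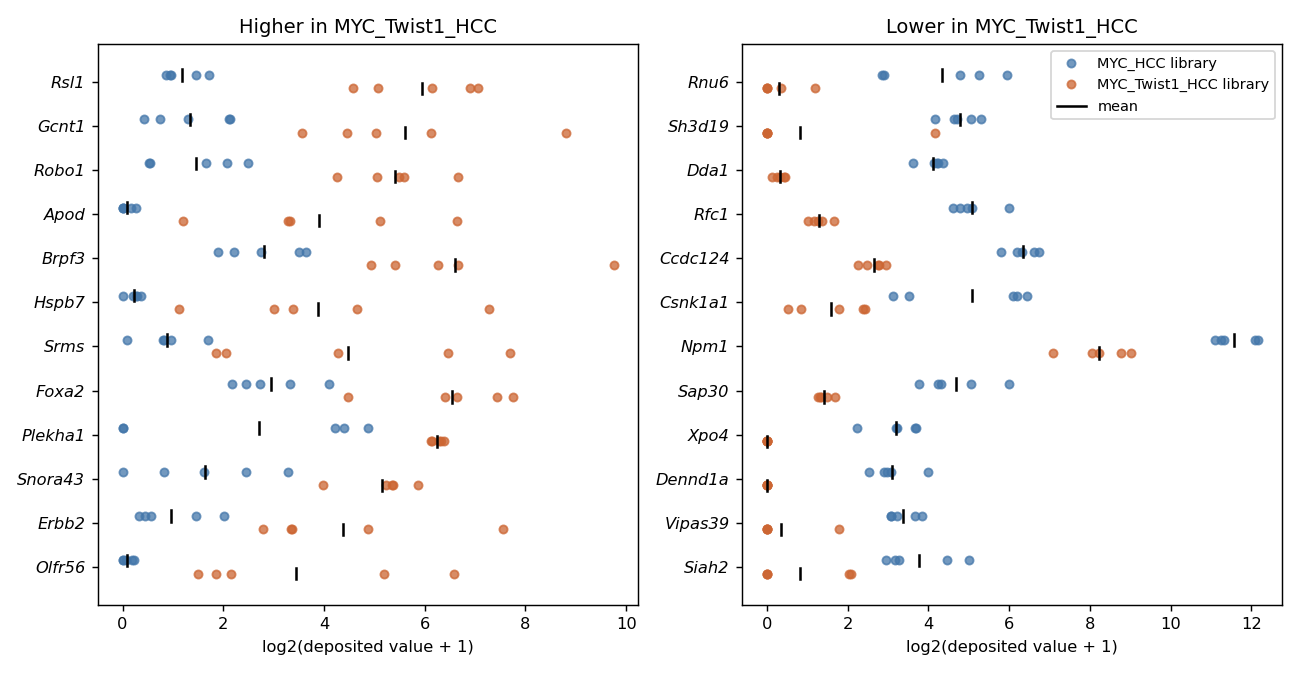
The 12 largest rises (left) and 12 largest falls (right), ordered by fold change, with 1 point per library on the log2(deposited value + 1) axis, blue for MYC_HCC and orange for MYC_Twist1_HCC, and a black bar at each group mean. The rises spread widely within MYC_Twist1_HCC, whereas most falls lie near 0 in that group; Sh3d19 and Vipas39 each have 1 MYC_Twist1_HCC library, 4, away from 0.

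Several of the largest falls were even across the libraries of each group. Dda1, a subunit of the DDB1-CUL4 ubiquitin ligase (chromosome 8, 71469199 to 71476098), lay at 17.6, 19.5, 17.8, 11.3 and 16.5 against 0.2, 0.36, 0.34, 0.26 and 0.1 (log2 fold change -3.79, SE 0.18, adjusted p = 1.06e-06). Rfc1, the large subunit of the clamp loader that puts PCNA on DNA (chromosome 5, 65261850 to 65335670), lay at 26.5, 30.1, 62.8, 23.4 and 32.8 against 1.4, 1.03, 1.26, 2.16 and 1.59 (log2 fold change -3.79, SE 0.25, adjusted p = 1.43e-05). Ccdc124, a ribosome-associated protein (chromosome 8, 70868227 to 70873935), lay at 72.6, 106, 97.05, 54.7 and 79.3 against 3.81, 6.8, 5.79, 4.56 and 5.88 (log2 fold change -3.69, SE 0.21, adjusted p = 4.18e-06). In all 3 genes every MYC_HCC library was far above every MYC_Twist1_HCC library. Sap30, a subunit of the Sin3 histone deacetylase complex (chromosome 8, 57482707 to 57487860), lay at 18.8, 32.6, 62.5, 12.7 and 17.7 against 2.2, 1.54, 1.79, 1.5 and 1.42 (log2 fold change -3.25, SE 0.35, adjusted p = 0.000561). Csnk1a1, the kinase that primes beta-catenin for destruction (chromosome 18, 61555274 to 61590061), was at 71.9, 7.7, 10.5, 85.7 and 67.2 against 4.23, 0.43, 0.79, 2.46 and 4.44 (log2 fold change -3.48, SE 0.69, adjusted p = 0.0129). Libraries 2 and 3 of both groups held its low values. Rnu6, the U6 RNA of the spliceosome, was at 60.9, 6.44, 6.2, 37.2 and 26.5 against 1.27, 0, 0.28, 0 and 0 (log2 fold change -4.04, SE 0.57, adjusted p = 0.00287), but U6 has many near-identical copies and its level is uncertain. In a fit of all 5 groups the calls of Csnk1a1 and Rnu6 were lost (adjusted p = 0.167 and 0.107).

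Several falls ended at values of 0. Xpo4, an exportin (chromosome 14, 57577521 to 57665430), lay at 11.9, 3.7, 8.3, 8.21 and 11.8 in MYC_HCC 1 to 5 and was listed at 0 in all 5 MYC_Twist1_HCC libraries (limma adjusted p = 8.68e-05). Dennd1a, an activator of the endosomal GTPase Rab35 (chromosome 2, 37798991 to 38287390), lay at 6.87, 4.77, 15.01, 7.38 and 6.46 and was also listed at 0 in all 5 (adjusted p = 8.68e-05). Sh3d19, an adaptor with SH3 domains (chromosome 3, 85971109 to 86130526), lay at 32.1, 17.1, 23.96, 25.4 and 38.9 in MYC_HCC and was listed at 0 in MYC_Twist1_HCC except for 16.9 in library 4 (log2 fold change -3.95, SE 0.72, adjusted p = 0.00944). Vipas39, a partner of VPS33B in endosomal sorting (chromosome 12, 87238868 to 87266256), showed the same pattern with 2.46 in library 4, against 13.3, 7.45, 8.37, 7.4 and 11.7 in MYC_HCC (log2 fold change -3.02, SE 0.35, adjusted p = 0.00105). Siah2, a RING ubiquitin ligase (chromosome 3, 58674938 to 58692400), lay at 6.74, 31.4, 21.1, 8.67 and 7.98 against 3.25, 0, 3.07, 0 and 0 (log2 fold change -2.95, SE 0.55, adjusted p = 0.0106). A listed 0 also occurred in a gene with high values elsewhere. The ribosomal protein gene Rpl19, chosen after its values were seen, was listed at 0 in MYC_Twist1_HCC 3. It lay at 1209 to 2687 in the other 9 libraries. Whether a listed 0 means absent RNA was not tested.

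Since MYC and Twist1 both bind E-boxes, the 250 bases before the RefSeq start of each gene were searched for CACGTG, the E-box preferred by MYC-Max, and for CANNTG, the general E-box that includes it. Both motifs read the same on either strand. CACGTG was in 6.05% of all 27025 promoters of the table, in 8.61% of the 8838 of tested genes, in 10.6% of the 424 of genes that rose and in 8.72% of the 447 of genes that fell. CANNTG was in 66.0%, 56.9%, 59.2% and 55.0% of the same sets. Of the 12 largest rises 11 matched the table and 1 held CACGTG, that of Srms; of the 12 largest falls 7 matched and 1 held it, that of Rfc1. Both are printed because they are the only CACGTG promoters at the 2 ends of the comparison. Each is shown 5′ to 3′ on the gene's strand, from 250 to 51 bases before the start (RefSeq, GRCm38.p6), with CACGTG in capitals.
Srms, chr2:181213222-181213421, minus strand: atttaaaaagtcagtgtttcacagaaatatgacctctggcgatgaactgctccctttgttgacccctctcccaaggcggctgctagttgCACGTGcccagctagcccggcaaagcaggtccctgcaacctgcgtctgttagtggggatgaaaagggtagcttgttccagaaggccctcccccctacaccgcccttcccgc
Rfc1, chr5:65335690-65335889, minus strand: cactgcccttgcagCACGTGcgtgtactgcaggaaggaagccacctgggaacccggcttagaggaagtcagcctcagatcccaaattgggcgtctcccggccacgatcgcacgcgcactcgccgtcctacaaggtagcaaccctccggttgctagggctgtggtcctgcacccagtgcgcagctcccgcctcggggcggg
The CACGTG of Srms begins 161 bases before the start and that of Rfc1 236 bases before it. The 2 genes moved in opposite directions, and a match describes letters in this window only.

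A few ribosomal protein genes with high deposited values rose, while the median of the family lay near 0. Rps19, a small-subunit protein (chromosome 7, 24884371 to 24889806), lay at 1439, 458, 979.8, 849 and 1259.99 against 8097, 9142, 5761, 1656 and 7282 (log2 fold change 2.57, SE 0.47, adjusted p = 0.00934). Rps9 (chromosome 7, 3703993 to 3706897) lay at 1646, 740.5, 1479, 949 and 1382 against 5741, 6054, 4159, 3354 and 8018 (log2 fold change 2.14, SE 0.30, adjusted p = 0.00282). Rpl27a of the large subunit (chromosome 7, 109519147 to 109522367) lay at 1305, 961, 1921, 822 and 1244 against 3440.4, 2665, 2353, 2796 and 4562 (log2 fold change 1.36, SE 0.27, adjusted p = 0.0123). None of these 3 overlapped between groups, although MYC_Twist1_HCC 4 was far below its group for Rps19. Rpl28 (chromosome 7, 4792874 to 4795066) also rose, at 2038, 857, 1758, 1202 and 1673 against 3025, 3743, 2686, 2759 and 5687 (log2 fold change 1.25, SE 0.29, adjusted p = 0.0235), a call lost without MYC_Twist1_HCC 1 (adjusted p = 0.0524) or MYC_Twist1_HCC 5 (adjusted p = 0.0524), and without MYC_HCC 4 and 5 together (adjusted p = 0.0553). Rpl31 (chromosome 1, 39367842 to 39371911) fell, from 388, 277, 399.6, 363 and 599 to 163, 139, 252, 222 and 97 (log2 fold change -1.24, SE 0.28, adjusted p = 0.0204), a call lost without MYC_Twist1_HCC 1 (adjusted p = 0.0521), and without MYC_HCC 4 and 5 together (adjusted p = 0.0559). The family was examined after these genes were seen: of 77 cytosolic ribosomal protein genes tested, 7 rose and 1 fell (10.4%, against 9.64% of all genes), and the median log2 fold change was -0.005. Of the 14 of these genes on chromosome 7, 5 rose, against 2 of the 63 elsewhere. Over all 77 genes of the family, 9 rose and 5 fell after quantile normalization. Without MYC_HCC 4, 6 fell, and without MYC_Twist1_HCC 1 or MYC_Twist1_HCC 5, 4 rose. Many ribosomal protein genes have processed pseudogenes of near-identical sequence, so single values are uncertain.

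Other families were also examined after seeing the data. Of 39 proteasome genes 3 rose and 7 fell (25.6% called, against 9.64% of all genes). Psmd2, a scaffold of the regulatory particle, lay at 104, 65.4, 115, 65.1 and 102 against 379.9, 141, 306, 215 and 375 (log2 fold change 1.59, SE 0.29, adjusted p = 0.00961 by limma), with no overlap. Of 76 mitochondrial ribosomal protein genes 4 rose and 8 fell (15.8%). Mrps14 rose from 6.29 to 18.9 across MYC_HCC to 25.4 to 156 across MYC_Twist1_HCC (2.29, SE 0.43, adjusted p = 0.0109), and Mrpl18 fell from 121 to 265 to 38.1 to 81.7 (-1.46, SE 0.25, adjusted p = 0.00664). Of 36 genes of respiratory complex I, 1 rose and 5 fell (16.7%), with a median of -0.36. Ndufa3 fell the most, from 117 to 390.1 down to 37.1 to 99.5 (-1.85, SE 0.33, adjusted p = 0.00883). Of 280 Zfp zinc finger genes 15 rose and 7 fell (7.86%). Single libraries moved these counts. Leaving out 1 library at a time gave 1 to 4 proteasome genes that rose and 0 to 8 that fell, 0 of them without MYC_HCC 5 or MYC_Twist1_HCC 1. For mitochondrial ribosomal genes the ranges were 2 to 4 and 4 to 11, the 11 without MYC_HCC 4. For complex I they were 0 to 1 and 3 to 6, with 3 without MYC_Twist1_HCC 1 or 5. For zinc finger genes they were 5 to 22 and 3 to 8, with 5 rises without MYC_Twist1_HCC 1 and 22 without MYC_Twist1_HCC 4. The 4 genes named here held when any 1 library was left out.

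**Figure D3:**
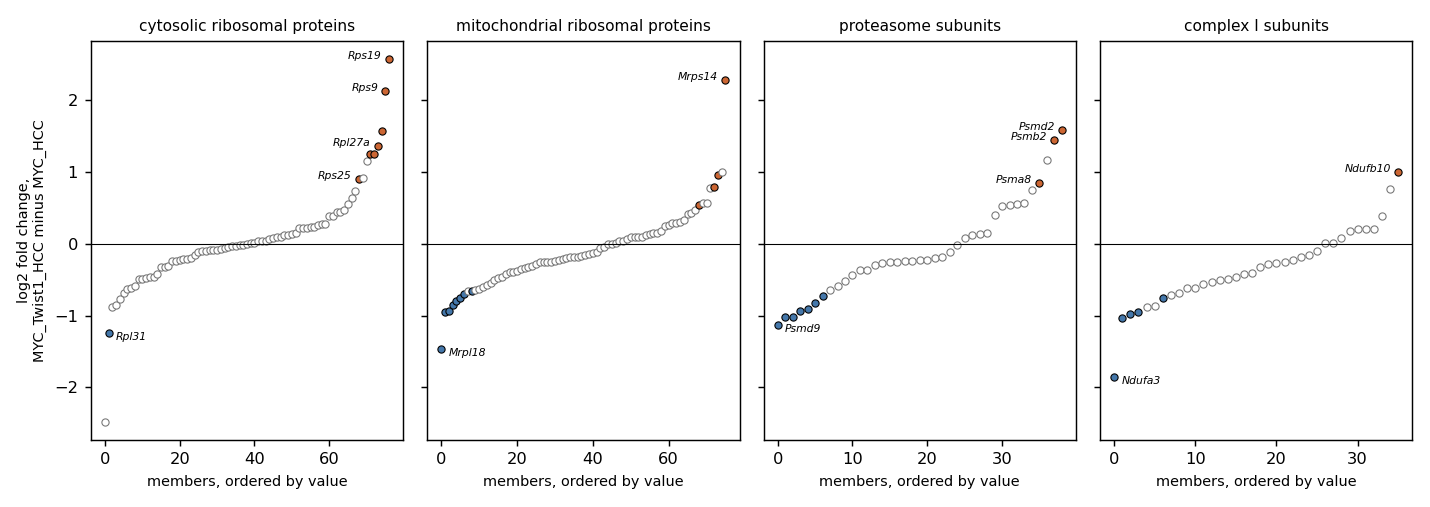
Log2 fold change (vertical axis) of every tested member of 4 protein families, ordered by value along the horizontal axis, with orange points called higher, blue called lower and open not called. Each family is spread around or below 0 with single members far from the rest, such as Rps19 at 2.57 and Ndufa3 at -1.85.

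Lists of mature liver genes had negative medians, which shrank without MYC_HCC 4, and few of their members passed the test. Of 24 tested hepatocyte secreted proteins 3 fell and 0 rose (12.5% called), with a median log2 fold change of -0.84. Fgb and Fga encode fibrinogen chains. Fgb (chromosome 3, 83040141 to 83049863) lay at 958, 712, 1496, 1909 and 1376 against 451, 346, 581, 527 and 423 (log2 fold change -1.41, SE 0.27, adjusted p = 0.0109). Fga (chromosome 3, 83026076 to 83033627) lay at 498, 371, 465, 1107 and 805 against 259, 215, 279.9, 296 and 172 (log2 fold change -1.31, SE 0.29, adjusted p = 0.0202). Vtn, the adhesive plasma protein vitronectin (chromosome 11, 78499091 to 78502324), lay at 344, 309, 324, 657 and 306 against 137, 138, 173, 209 and 105 (log2 fold change -1.31, SE 0.25, adjusted p = 0.011). All 3 were lower in every MYC_Twist1_HCC library than in any MYC_HCC library; Fga was lost without MYC_HCC 5 (adjusted p = 0.0525). Alb was at 1053, 1058, 1476, 1257 and 724 in MYC_Twist1_HCC 1 to 5 against 1452, 1449.8, 1984, 4480.1 and 2671 (log2 fold change -1.01, SE 0.32, adjusted p = 0.0682) and did not pass. Ttr, the thyroxine carrier transthyretin, and Apoa1, the main protein of high-density lipoprotein, had log2 fold changes of -0.52 and 0.07 (adjusted p = 0.223 and 0.89). The median of the list was -0.38 without MYC_HCC 4, with 5 called lower, and -0.29 without MYC_HCC 4 and 5, with 3. Without MYC_HCC 5 alone 2 were called lower.

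Of 23 genes of fatty acid oxidation 1 fell, Acadl, the long-chain acyl-CoA dehydrogenase (chromosome 1, 66830839 to 66863277), at 87.6, 79.95, 83.9, 149 and 103 against 39.6, 42.6, 58.8, 62.8 and 40.4 (log2 fold change -1.02, SE 0.21, adjusted p = 0.015), and the median was -0.59. Without MYC_HCC 4, 1 rose and 4 fell, with a median of -0.36. Of 26 genes of the urea cycle and amino acid breakdown 1 fell and 0 rose, and the median was -0.52. Without MYC_HCC 4, 2 rose and 3 fell, with a median of -0.16, and without MYC_HCC 4 and 5, 2 rose and 2 fell, with a median of -0.24. The 1 call was lost without MYC_HCC 5 or MYC_Twist1_HCC 1, 2 or 5. The summed value of this list was 6894 in MYC_HCC 4, 1912 to 2122 in the other 4 MYC_HCC libraries and 2184 to 2804 in MYC_Twist1_HCC. Of 24 lipid synthesis genes 2 fell, with a median of -0.31: Acaca, the acetyl-CoA carboxylase that commits carbon to fatty acids (log2 fold change -0.83, SE 0.19, adjusted p = 0.0223), lost without MYC_HCC 1 (adjusted p = 0.0532) or MYC_Twist1_HCC 1 (adjusted p = 0.0603), and without MYC_HCC 4 and 5 together (adjusted p = 0.057), and Fasn, the fatty acid synthase (log2 fold change -0.73, SE 0.20, adjusted p = 0.0426), lost without any 1 library other than MYC_HCC 5 (adjusted p = 0.0518 to 0.084). None of 22 cytochrome P450 and conjugation genes (median -0.56), 19 bile acid genes (-0.51), 22 glycolysis genes (-0.35) or 17 acute phase genes (-0.38) was called by limma. At an unadjusted p under 0.05 these lists had 3, 1, 4 and 1 members lower, and 1 glycolysis gene higher. These negative medians leaned on MYC_HCC 4: without it the median was -0.13 for P450 genes, -0.21 for bile acid genes and 0.033 for acute phase genes, and without MYC_HCC 4 and 5 that of P450 genes was 0.074. Cyp7a1, the rate-limiting enzyme of bile acid synthesis, was at 2.4, 3.5, 2.73, 54.6 and 1.24 against 2.87, 3.79, 3.14, 2.94 and 4. Only MYC_HCC 4 was high. Of 30 complement and coagulation genes 1 fell, Plg, the precursor of plasmin (log2 fold change -0.95, SE 0.25, adjusted p = 0.0354), lost without MYC_HCC 2, MYC_HCC 5, MYC_Twist1_HCC 1, MYC_Twist1_HCC 2 or MYC_Twist1_HCC 5 (adjusted p = 0.0528 to 0.0854), and without MYC_HCC 4 and 5 together (adjusted p = 0.0714).

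Among 17 liver transcription factors Foxa2 rose and Xbp1, a factor of the secretory stress response (chromosome 11, 5520659 to 5525893), fell (39.97 to 58.97 against 15.2 to 34.2; log2 fold change -0.85, SE 0.23, adjusted p = 0.0386). Xbp1 was lost without any 1 library other than MYC_HCC 4, MYC_Twist1_HCC 2, MYC_Twist1_HCC 3 or MYC_Twist1_HCC 4 (adjusted p = 0.0552 to 0.0939), and without MYC_HCC 4 and 5 together (adjusted p = 0.0768). Hnf4a had a log2 fold change of -0.31 and was not called. Of 14 oncofetal and progenitor genes none was called, with 2 higher and 0 lower at an unadjusted p under 0.05. Igf2, a fetal growth factor, lay at 1124 to 4736 against 1052 to 1477.

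**Figure D4:**
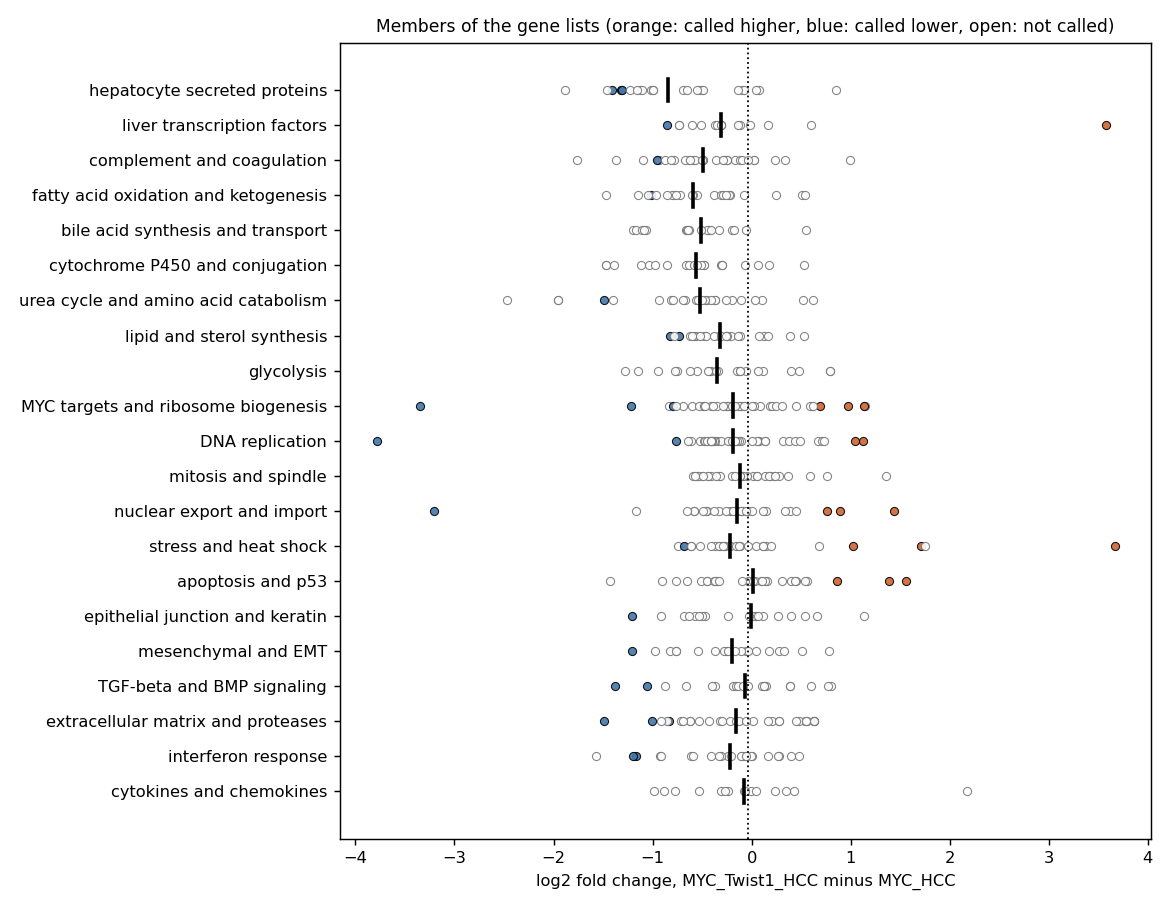
Log2 fold change (horizontal axis) of each tested member of 21 gene lists (rows), with orange points called higher, blue called lower and open not called. Black bars are list medians and the dotted line is the median of all tested genes, -0.039; the medians of the liver function lists sit left of it and the cell cycle and apoptosis lists near it, with single members far out.

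Calls in the program most closely tied to MYC went both ways, and its lean to lower values was shared by other lists. Of 42 tested MYC target and ribosome biogenesis genes 3 rose and 3 fell (14.3%, against 9.64% of all genes), with a median of -0.18. At an unadjusted p under 0.05 by limma, 4 were higher and 12 lower. The log2 fold change was above 0 in 14 and below 0 in 28, against 5627 and 6331 of all tested genes. A similar lean was seen in housekeeping genes (9 above and 19 below, median -0.174) and nuclear transport genes (9 and 21, median -0.152). Npm1, the nucleolar chaperone nucleophosmin (chromosome 11, 33152287 to 33163206), lay at 4582, 2199, 2565, 2416 and 4337 against 301, 135, 519.9, 436 and 265 (log2 fold change -3.35, SE 0.36, adjusted p = 0.000561), with every MYC_Twist1_HCC library far below every MYC_HCC library. Npm1 has near-identical processed pseudogenes, so its level is uncertain. Max, the obligate partner of MYC (chromosome 12, 76937269 to 76962201), lay at 49.3, 57.2, 74.5, 39.5 and 46.6 against 22.2, 16.9, 26.9, 25.3 and 19.7 (log2 fold change -1.22, SE 0.19, adjusted p = 0.00513), with no overlap. Utp20, a factor of small-subunit assembly (chromosome 10, 88746607 to 88826804), rose, at 12.1, 14.96, 10.96, 9.69 and 14.1 against 36.97, 29.7, 22.8, 17.9 and 37.7 (log2 fold change 1.13, SE 0.22, adjusted p = 0.0117). Gnl3, the nucleolar GTPase nucleostemin, rose (125 to 207 against 237 to 486; log2 fold change 0.97, SE 0.22, adjusted p = 0.0212) and was lost without MYC_Twist1_HCC 1 (adjusted p = 0.0594), and without MYC_HCC 4 and 5 together (adjusted p = 0.0544). Shmt2, the mitochondrial serine hydroxymethyltransferase, rose (log2 fold change 0.69, SE 0.19, adjusted p = 0.0446) and Nop14, another ribosome assembly factor, fell (log2 fold change -0.79, SE 0.22, adjusted p = 0.0448). Shmt2 was lost without any 1 library other than MYC_HCC 4 (adjusted p = 0.0505 to 0.0864), and without MYC_HCC 4 and 5 together (adjusted p = 0.0634), and Nop14 without any 1 library other than MYC_HCC 4 or MYC_Twist1_HCC 3 (adjusted p = 0.0533 to 0.102). Without MYC_HCC 4, 7 members of the list fell, and without MYC_Twist1_HCC 1, 1 rose.

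Of 40 DNA replication genes 2 rose and 2 fell (10% called, close to the 9.64% of all genes), with a median of -0.18. Ccne2, the cyclin E2 that starts S phase (chromosome 4, 11191351 to 11204779), lay at 21.2, 17.03, 18.9, 10.4 and 15.7 against 35.3, 40.4, 31.6, 26.4 and 40.8 (log2 fold change 1.04, SE 0.20, adjusted p = 0.0113). Rpa1, the large subunit of the single-strand binding protein (chromosome 11, 75298166 to 75348324), lay at 54.4, 29.02, 41.9, 43.3 and 53.3 against 83.1, 76.9, 98.5, 82.9 and 153 (log2 fold change 1.12, SE 0.23, adjusted p = 0.0139). In both, every MYC_Twist1_HCC library was above every MYC_HCC library. Rfc1 fell, as above, and so did Rrm2, the small subunit of ribonucleotide reductase (54.1 to 81.03 against 31.04 to 52.7; log2 fold change -0.76, SE 0.18, adjusted p = 0.0275), a call lost without MYC_HCC 1, MYC_HCC 2, MYC_Twist1_HCC 1, MYC_Twist1_HCC 2 or MYC_Twist1_HCC 5 (adjusted p = 0.055 to 0.0659), and without MYC_HCC 4 and 5 together (adjusted p = 0.0588). Mcm2, Mcm3 and Mcm4 of the replicative helicase were not called (-0.11, -0.38 and -0.45). Without MYC_HCC 4, 3 members rose and 6 fell, and without MYC_HCC 4 and 5, 2 rose and 3 fell. Without MYC_HCC 1 or 2, or MYC_Twist1_HCC 1, 2 or 5, 1 fell. None of 34 mitosis genes was called (median -0.11; 2 higher and 6 lower at an unadjusted p under 0.05), but 6 fell without MYC_HCC 4.

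Chromatin, nuclear transport and stress genes gave calls in both directions (11.5%, 13.3% and 13.8% called, against 9.64% of all genes). Of 26 chromatin reader genes Brpf3 rose, and Sap30 and Rbbp7, a histone-binding subunit shared by several deacetylase complexes (chromosome X, 162760402 to 162779092; 120.2 to 195 against 66.1 to 108; log2 fold change -0.90, SE 0.19, adjusted p = 0.0173), fell. Rbbp7 was lost without MYC_Twist1_HCC 1 (adjusted p = 0.0518). Without MYC_HCC 4, 3 chromatin reader genes fell. Of 30 nuclear transport genes 3 rose and Xpo4, which passed the filter only through MYC_HCC, fell. Rangap1, the activating protein of the GTPase Ran (chromosome 15, 81704248 to 81745530), lay at 93.1, 66.7, 79.5, 66.6 and 103 against 136, 171, 158, 137 and 152 (log2 fold change 0.89, SE 0.16, adjusted p = 0.00934). Cse1l, which recycles importin alpha, rose (log2 fold change 0.77, SE 0.17, adjusted p = 0.0209). It was lost without MYC_Twist1_HCC 1 (adjusted p = 0.0543), and in the fit of all 5 groups (adjusted p = 0.0591). Ipo11, an importin, rose (log2 fold change 1.44, SE 0.40, adjusted p = 0.0426) and was lost without any 1 library other than MYC_HCC 4 or MYC_Twist1_HCC 4 (adjusted p = 0.0532 to 0.0865), and without MYC_HCC 4 and 5 together (adjusted p = 0.0702). Xpo1, the main exportin, was at 42.1 to 65.9 against 35.7 to 56.8 and was not called. Without MYC_HCC 4, 5 nuclear transport genes fell, and without MYC_Twist1_HCC 1, 1 rose.

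Of 29 stress genes 3 rose and 1 fell. Hsp90aa1, the inducible form of the chaperone HSP90 (chromosome 12, 110690605 to 110702728), lay at 956, 553, 691, 414 and 1058 against 1796, 2399, 1573, 1680.3 and 5250.04 (log2 fold change 1.71, SE 0.36, adjusted p = 0.0173). MYC_Twist1_HCC 5 was highest, and the lowest of that group was still above all MYC_HCC libraries. Dnaja1, an HSP40 co-chaperone (44.1 to 85.7 against 94.7 to 164, log2 fold change 1.02, SE 0.22, adjusted p = 0.0174), rose with it but was lost without MYC_Twist1_HCC 1 (adjusted p = 0.0511). The third riser was Hspb7, which passed the filter only through MYC_Twist1_HCC. Txnrd1, the cytosolic thioredoxin reductase, fell (log2 fold change -0.68, SE 0.16, adjusted p = 0.0235). It was lost without MYC_HCC 3, MYC_HCC 5, MYC_Twist1_HCC 1 or MYC_Twist1_HCC 5 (adjusted p = 0.0506 to 0.0672), and in the fit of all 5 groups (adjusted p = 0.0523). Without MYC_HCC 3, MYC_HCC 5 or MYC_Twist1_HCC 1, 2 stress genes rose, and 4 rose without MYC_HCC 4 or MYC_Twist1_HCC 4. Hspa1b, a heat shock protein gene, was not called (log2 fold change 1.75, adjusted p = 0.0559 by limma). It was called higher without MYC_HCC 4 (2.19, SE 0.4, adjusted p = 0.00929) and without MYC_HCC 4 and 5 (2.41, SE 0.43, adjusted p = 0.0174). Hsf1, the heat shock factor, was at 19.3 to 37.4 against 23.4 to 38.5 and was not called. Of 29 apoptosis and p53 genes 3 rose and 0 fell (10.3% called, close to the 9.64% of all genes). Casp9, the initiator caspase of the mitochondrial pathway (chromosome 4, 141793612 to 141815976), lay at 2.88, 3.77, 2.66, 2.38 and 2.44 against 8.84, 16.7, 4.46, 12.2 and 13.1 (log2 fold change 1.56, SE 0.28, adjusted p = 0.00941). Aen, a nuclease induced by p53 (log2 fold change 1.39, SE 0.35, adjusted p = 0.0329), and Tnfrsf10b, a TRAIL death receptor (log2 fold change 0.86, SE 0.23, adjusted p = 0.0412), also rose, Aen lost without any 1 library other than MYC_HCC 4, MYC_Twist1_HCC 3, MYC_Twist1_HCC 4 or MYC_Twist1_HCC 5 (adjusted p = 0.0503 to 0.0674), and without MYC_HCC 4 and 5 together (adjusted p = 0.0686). Tnfrsf10b was lost without any 1 library other than MYC_HCC 4, MYC_Twist1_HCC 3 or MYC_Twist1_HCC 4 (adjusted p = 0.064 to 0.0923), and without MYC_HCC 4 and 5 together (adjusted p = 0.0802). Trp53 itself and its ligase gene Mdm2 were not called (-0.45 and -0.38). Without MYC_HCC 4, 2 genes of the list fell.

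No gene of the EMT program rose. Of 20 tested mesenchymal and EMT genes 0 rose and 1 fell (5% called, against 9.64% of all genes), with a median of -0.20. The gene that fell was Fn1, fibronectin, a mesenchymal marker that hepatocytes also secrete (chromosome 1, 71585520 to 71653200). It lay at 49.1, 61.5, 58.04, 67.3 and 73.5 against 24.3, 12.9, 31, 43.3 and 28.1 (log2 fold change -1.20, SE 0.27, adjusted p = 0.0199), with no overlap, and was lost without MYC_HCC 5 (adjusted p = 0.0507) or MYC_Twist1_HCC 1 (adjusted p = 0.0524), and without MYC_HCC 4 and 5 together (adjusted p = 0.064). Snai1, Snai3 and Zeb1, transcription factors of EMT, were at most 6.37 in all 10 libraries and were not called (0.32, 0.79 and -0.04). Of 20 epithelial genes 0 rose and 1 fell: Ctnna1, alpha-catenin of the adherens junction (chromosome 18, 35118859 to 35254779), lay at 61.1, 79.5, 65.01, 74.5 and 80.6 against 30.9, 32.5, 33.9, 39.7 and 19.6 (log2 fold change -1.20, SE 0.19, adjusted p = 0.0048). Cdh1, E-cadherin, lay at 105, 149, 109, 11.6 and 129 against 58.3, 79.3, 67.1, 88.6 and 43.01 and was not called (log2 fold change -0.23, SE 0.58, adjusted p = 0.819). Without MYC_HCC 4 it was called lower (log2 fold change -0.89, SE 0.21, adjusted p = 0.023), and without MYC_HCC 4 and 5 it was not (-0.86, SE 0.24, adjusted p = 0.0557). All 5 MYC_Twist1_HCC values of Cdh1 lay below those of MYC_HCC 1, 2, 3 and 5 and above that of MYC_HCC 4. Krt8, a keratin of simple epithelia, had a log2 fold change of -0.91 (adjusted p = 0.0721), and was called lower without MYC_HCC 4 (-1.11, SE 0.26, adjusted p = 0.0246) but not without MYC_HCC 4 and 5 (-0.88, SE 0.24, adjusted p = 0.0553). Without MYC_HCC 4 the list thus had 3 called lower.

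TGF-beta and matrix genes were called at shares at or above that of all genes, and single libraries moved the counts. Of 20 TGF-beta and BMP genes 2 fell (10% called, close to the 9.64% of all genes). Leaving out 1 library at a time gave 0 to 1 that rose and 1 to 3 that fell. Smad4, the shared signal transducer of both pathways (chromosome 18, 73639009 to 73703780), lay at 22.7, 28.1, 14.6, 22.6 and 20.8 against 9.4, 8.13, 7.76, 10.7 and 13.7 (log2 fold change -1.06, SE 0.20, adjusted p = 0.0109), with no overlap. Id1, a direct BMP target (chromosome 2, 152736251 to 152737410; 2.3 to 8.33 against 0.36 to 3.2; log2 fold change -1.38, SE 0.33, adjusted p = 0.0275), fell and was lost without any 1 library other than MYC_HCC 4, MYC_Twist1_HCC 4 or MYC_Twist1_HCC 5 (adjusted p = 0.052 to 0.0608). Tgfb1, the ligand, had -0.87 (adjusted p = 0.0549). Of 29 matrix and protease genes 1 rose and 3 fell (13.8%). Leaving out 1 library at a time gave 0 to 2 that rose and 1 to 4 that fell. Col4a2, a basement membrane collagen chain (chromosome 8, 11312805 to 11449287), lay at 38.7, 40.5, 36.9, 49.1 and 41.4 against 21.8, 16.9, 23.04, 27.5 and 13.3 (log2 fold change -1.01, SE 0.19, adjusted p = 0.0109). Col1a1, a fibrillar collagen chain (chromosome 11, 94936224 to 94953042), lay at 6.48, 10.03, 6.43, 28.9 and 19.9 against 4.37, 4.79, 1.73, 4.9 and 3.4 (log2 fold change -1.49, SE 0.40, adjusted p = 0.0386), highest in MYC_HCC 4 and 5, and was lost without any 1 library other than MYC_HCC 1, MYC_HCC 3, MYC_HCC 4 or MYC_Twist1_HCC 4 (adjusted p = 0.0529 to 0.09), and without MYC_HCC 4 and 5 together (adjusted p = 0.0793). Ctsl, a lysosomal protease, fell (log2 fold change -0.83, SE 0.23, adjusted p = 0.042) and was lost without any 1 library other than MYC_HCC 4 or MYC_Twist1_HCC 4 (adjusted p = 0.0506 to 0.0938), and without MYC_HCC 4 and 5 together (adjusted p = 0.0526); Mmp15, a membrane-bound metalloproteinase, rose (log2 fold change 0.63, SE 0.16, adjusted p = 0.0373) and was lost without any 1 library other than MYC_HCC 4 or MYC_Twist1_HCC 4 (adjusted p = 0.0534 to 0.0994), and without MYC_HCC 4 and 5 together (adjusted p = 0.0652). The summed value of the 33 listed matrix genes in the table was 910.1 to 998 in MYC_HCC and 570.1 to 754 in MYC_Twist1_HCC. Of 20 axon guidance genes Robo1 and Sema6a, a transmembrane semaphorin (2.25 to 5.28 against 6.48 to 19.1; log2 fold change 1.35, SE 0.27, adjusted p = 0.0144), rose and 0 fell. Sema6a was lost in the fit of all 5 groups (adjusted p = 0.0748). Jun, a subunit of the AP-1 factor (chromosome 4, 95049034 to 95052222), was the 1 of 11 immediate early genes called: it lay at 13.5, 15.3, 20.2, 29.7 and 22.6 against 2.79, 6.14, 7.91, 6.23 and 4.57 (log2 fold change -1.71, SE 0.27, adjusted p = 0.00479), with no overlap.

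No cytokine or chemokine gene was called. Of 37 listed cytokine and chemokine genes 15 passed the filter, 0 rose and 0 fell by limma; at an unadjusted p under 0.05, 2 were higher and 1 lower. Ccl2, the macrophage-attracting chemokine, lay at 0.93, 0.93, 1.44, 0.68 and 2.03 against 0.73, 0.52, 0.82, 1.1 and 0.84 (log2 fold change -0.26, SE 0.20, adjusted p = 0.409). Il13 was listed at 0 in all 10 libraries. Of 24 interferon response genes 2 fell: B2m, the light chain of class I histocompatibility molecules (chromosome 2, 122147686 to 122153083), at 554, 500.4, 443, 1198 and 747 against 283, 248, 274, 439.5 and 228 (log2 fold change -1.16, SE 0.28, adjusted p = 0.0273), and Irf7, a factor of the interferon response (1.91 to 7.73 against 0.57 to 1.69; log2 fold change -1.20, SE 0.32, adjusted p = 0.0386). B2m was lost without MYC_HCC 5, MYC_Twist1_HCC 1, MYC_Twist1_HCC 2, MYC_Twist1_HCC 3 or MYC_Twist1_HCC 5 (adjusted p = 0.0525 to 0.0659), and without MYC_HCC 4 and 5 together (adjusted p = 0.0554), and Irf7 without any 1 library other than MYC_HCC 2, MYC_HCC 3, MYC_HCC 4 or MYC_Twist1_HCC 2 (adjusted p = 0.0509 to 0.0886), and without MYC_HCC 4 and 5 together (adjusted p = 0.083).

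Of 21 tested macrophage markers 2 rose and 1 fell. Both that rose, Cd163 and Cx3cr1, passed the filter only through MYC_Twist1_HCC, so they had to be higher there to be tested, and nothing is read from that count. Cd163, a scavenger receptor (chromosome 6, 124304656 to 124330527), lay at 0.46, 0.51, 0.58, 0.13 and 0.39 against 4.18, 3.42, 1.72, 1.22 and 2.2 (log2 fold change 1.27, SE 0.25, adjusted p = 0.0117). Cx3cr1, the fractalkine receptor, rose (log2 fold change 1.02, SE 0.26, adjusted p = 0.0356) and was lost without any 1 library other than MYC_HCC 1, MYC_HCC 4, MYC_Twist1_HCC 2 or MYC_Twist1_HCC 4 (adjusted p = 0.065 to 0.0854), and without MYC_HCC 4 and 5 together (adjusted p = 0.0715). Ms4a7 fell (2.65 to 7.97 against 0.79 to 2.32; log2 fold change -1.19, SE 0.26, adjusted p = 0.0193), and was lost without MYC_HCC 4 and 5 together (adjusted p = 0.0539). Csf1r, the receptor for macrophage growth factor, was not called (-0.68, adjusted p = 0.0821). Cd68, another marker, leaned the other way and was not called either (0.79, adjusted p = 0.0792 by limma). Without MYC_HCC 4 and 5 Cd68 was called higher (1.1, SE 0.19, adjusted p = 0.0173). Csf1r was not called in that fit (-0.62, SE 0.23, adjusted p = 0.117). The summed level of the 24 listed macrophage markers in the table was 909.75 to 1215 in MYC_HCC and 757 to 1015 in MYC_Twist1_HCC, and overlapped. Of 7 neutrophil and monocyte markers 2 rose, among them Itgam, an integrin of myeloid cells (chromosome 7, 128062640 to 128118491), at 0.38, 0.17, 0.67, 0.95 and 0.22 against 2.99, 3.77, 1.89, 0.98 and 3.6 (log2 fold change 1.26, SE 0.27, adjusted p = 0.0181). Both also passed the filter only through MYC_Twist1_HCC. The summed level of that list was 33.5 to 102 against 79.1 to 96.1, lowest in MYC_HCC 4 and 5. Of 7 T and NK cell markers Cd4 fell (0.6 to 2.98 against 0.15 to 0.45, log2 fold change -1.100, SE 0.24, adjusted p = 0.0202). It was lost without MYC_Twist1_HCC 1 (adjusted p = 0.0521), and without MYC_HCC 4 and 5 together (adjusted p = 0.0548). Cd4 passed the filter only through MYC_HCC, so it had to be higher there to be tested, and nothing is read from that count. None of 4 B cell or 4 dendritic cell markers was called; at an unadjusted p under 0.05, 1 B cell marker was higher and 2 dendritic cell markers lower. Most of these values are under 10, and fold changes of low genes are understated on the log2(value + 1) scale.

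Other cell types gave few calls. Of 16 endothelial markers Emcn, a sialoprotein of capillaries, rose (4.17, 4.15, 4.51, 13.9 and 4.87 against 15.6, 9.98, 8.93, 18.99 and 15.2; log2 fold change 1.103, SE 0.31, adjusted p = 0.0483), and was lost without any 1 library other than MYC_HCC 4 (adjusted p = 0.0501 to 0.111). The summed endothelial level was 62.7 to 179 in MYC_HCC, highest in library 4, and 64.8 to 108 in MYC_Twist1_HCC. Of 11 stellate cell and fibroblast markers Col1a1 and Des, the muscle and stellate filament desmin (1.16 to 3.08 against 0.09 to 0.72; log2 fold change -1.13, SE 0.24, adjusted p = 0.0181), fell. Des was lost in the fit of all 5 groups (adjusted p = 0.289). It passed the filter only through MYC_HCC, so nothing is read from its fall. The summed level of that list was 182 in MYC_HCC 4, 98.0 in MYC_HCC 5 and 38.2 to 53.6 in the other 8. None of 7 cholangiocyte, 5 erythroid or 15 hepatocyte markers was called, with 0, 1 and 5 lower and 0 higher at an unadjusted p under 0.05. The hepatocyte markers had a median of -0.93 (-0.36 without MYC_HCC 4) and summed to 5564 to 11523 in MYC_HCC and 3470 to 5659 in MYC_Twist1_HCC. The part of these cell types in the gene changes above was not tested.

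A few widely expressed genes were also called. Pfn1, the actin-binding protein profilin (chromosome 11, 70651850 to 70654644), fell, at 512, 449, 915, 287 and 476 against 177, 179, 295, 253 and 136 (log2 fold change -1.29, SE 0.30, adjusted p = 0.0235), and was lost without MYC_HCC 1, MYC_HCC 5, MYC_Twist1_HCC 1 or MYC_Twist1_HCC 5 (adjusted p = 0.0525 to 0.0612). Of 28 housekeeping genes Psmb2 rose (1.44) and Rab7 and Snrpd3 fell (-1.15 and -0.92), a share called (10.7%) close to that of all genes. Psmb2 was lost without MYC_Twist1_HCC 1 (adjusted p = 0.0593) or MYC_Twist1_HCC 3 (adjusted p = 0.0516) or MYC_Twist1_HCC 5 (adjusted p = 0.0514), and without MYC_HCC 4 and 5 together (adjusted p = 0.0608). Rab7 was lost without MYC_HCC 3, MYC_HCC 5, MYC_Twist1_HCC 1 or MYC_Twist1_HCC 5 (adjusted p = 0.0581 to 0.0789), and without MYC_HCC 4 and 5 together (adjusted p = 0.0721). Snrpd3 was lost without any 1 library other than MYC_HCC 2, MYC_HCC 4, MYC_Twist1_HCC 3 or MYC_Twist1_HCC 4 (adjusted p = 0.0615 to 0.0779). Of 12 structural noncoding RNAs Snhg1, a snoRNA host gene, rose (log2 fold change 1.08, SE 0.28, adjusted p = 0.0376), lost without any 1 library other than MYC_HCC 1, MYC_HCC 3, MYC_HCC 4 or MYC_Twist1_HCC 4 (adjusted p = 0.061 to 0.0862), and without MYC_HCC 4 and 5 together (adjusted p = 0.0706).

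The MYC_Twist1_HCC libraries did not carry the changes equally. Of the 582 genes that rose, 209 were highest in library 5 and 21 in library 4, while 257 were lowest in library 4 and 46 in library 5. Of the 571 that fell, 291 were lowest in library 5 and 7 in library 4, and 270 were highest in library 4 and 43 in library 5. Library 4 thus lay nearest to MYC_HCC and library 5 farthest, in both directions. Without library 4 the test called 642 higher and 591 lower, and without library 5, 349 and 283.

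**Figure D5:**
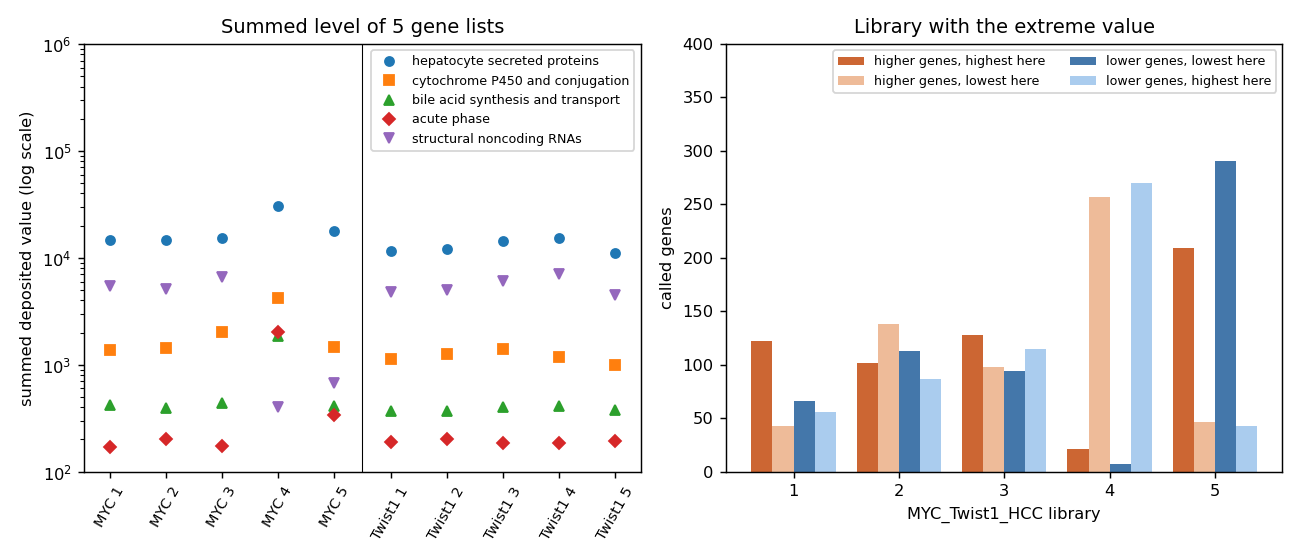
Left, the summed deposited value (log axis) of 5 gene lists in each of the 10 libraries, MYC_HCC 1 to 5 and then MYC_Twist1_HCC 1 to 5: MYC_HCC 4 is highest for the 4 liver lists and lowest, with MYC_HCC 5, for structural noncoding RNAs. Right, for each MYC_Twist1_HCC library, how many of the called genes had their highest or lowest value of that group there: library 4 holds few of the far values and library 5 many.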

How the data were processed

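The deposited table holds normalized signal values per gene symbol, 1 column per library. The mm10 build and the programs DESeq2, featureCounts, Picard, STAR and Trimmomatic are named in the submitters' processing notes. How the authors scaled the signal is not given in the sources used here, nor is use of strand, and the sequencing depth is unknown. The deposited signal summed to 516133 to 629906 per library. Values are not whole numbers, so limma 3.58.1 in R 4.3.3 was used with an intensity trend on log2(value + 1), on the 10 libraries alone (8 residual degrees of freedom), two-sided, with Benjamini-Hochberg adjustment over 11958 genes and calls at an adjusted p under 0.05. This fold change understates changes of low genes, and the values are not known to be per length, so levels of different genes are not comparable. Columns of 9 other libraries were used only in the 5-group fit and the closing section. Symbols that are bare numbers (25) were left out. Symbols were matched to mouse names (11263 of the tested), and coordinates are those of the GENCODE annotation of GRCm38. The calculation was tested on simulated data.

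Members, lists and named genes were chosen with earlier results of these data known. Named genes are Myc and Twist1; the 12 largest rises and falls among called genes that did not overlap between groups, with a mean of at least 5 in the higher group and no predicted symbol; the 6 calls of at least 2-fold with the highest deposited values per direction, used only to choose names; and, in each described list, up to 4 called members per direction by p and up to 3 others in list order. Psmd2, Mrps14, Mrpl18, Ndufa3 and Rpl19 fall outside that rule and were chosen after their values were seen. A few genes that the rule names are not reported here. Lists are described by counts and medians, with no set test. Alternatives were 2 other pseudocounts, 2 other filters, 4 scalings, a fit of all 5 groups, other limma settings, a block for the replicate number, leaving out each library, and leaving out MYC_HCC 4 and 5 together.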

Additional observations from a re-analysis of the deposited data

Results flagged for a closer look

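In 72 groups of 5 libraries checked for a single library far from the others, 3 were flagged. That is no more than chance would flag, at about 1 in 20 groups. Where the other 4 libraries are all at 0, as for Sh3d19 and Vipas39, any value above 0 is flagged. All 3 were MYC_Twist1_HCC 4: Sh3d19 at 16.89 where the other 4 libraries were listed at 0, Vipas39 at 2.46 where the other 4 were listed at 0, and Rps19 at 1655.96 where the other 4 lay between 5761 and 9142.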

How the results depend on the processing

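The number of calls depended on the libraries more than on most settings. Leaving out each library in turn gave 278 to 671 higher and 195 to 875 lower, with 691 to 903 and 828 to 1262 genes not overlapping upward and downward. Without MYC_HCC 4 and 5 together there were 380 higher and 438 lower, with 1031 and 1732 not overlapping. Array weights gave 1676 higher and 2230 lower, and called Myc lower (-0.368, adjusted p = 0.0206 by limma; 0.0206 to 0.296 over its alternatives). At an adjusted p under 0.01, 121 were higher and 74 lower. The labels do not say whether the replicate numbers pair the libraries. Same-numbered libraries deviated with correlations of -0.082 to 0.156, and 1 of 5 correlated best with its own number. That shows no clear pairing but cannot exclude one. With the replicate block 447 genes were higher and 360 lower. The remaining settings moved neither count by over 1.5 times, and shared between 775 and 1132 of the 1153 calls. For the moves given here the cause was not tested. Of 82 named genes called, 36 held under all alternatives other than the stricter p, 39 were lost without at least 1 library, and 0 changed sign. The fit of all 5 groups also ended the calls of Xbp1, Mmp15, Ctsl, Shmt2, Aen, Cx3cr1 and Emcn (adjusted p = 0.0635 to 0.184 by limma). With 5 libraries a group and unknown depth, small changes of low genes are not resolved.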

Other observations

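The other 3 groups give a second view of the same genes in libraries that are not among the 10. Per the labels they are MYC_OFF, MYC_Twist1_OFF and MYC_Recur, 3 libraries each. They are not marked as re-analysed, so they differ from the 10 in that mark as well as in group. Rps19 lay at 26471, 32923 and 65239 in MYC_OFF, 50636, 28733 and 28889 in MYC_Twist1_OFF and 843, 1911 and 446 in MYC_Recur. Foxa2 lay at 290.03, 802 and 998 in MYC_OFF, 445, 1052 and 838 in MYC_Twist1_OFF and 113, 202 and 93.3 in MYC_Recur. Rsl1 lay at 778, 559.7 and 1108 in MYC_OFF, 766, 1327 and 1572 in MYC_Twist1_OFF and 16.4, 35.3 and 54.2 in MYC_Recur. Each of these 3 genes was high in both OFF groups, with or without the Twist1 label, and lower in MYC_Recur. Xpo4, listed at 0 in all 5 MYC_Twist1_HCC libraries, was listed at 0 in all 9 of these libraries too. Dda1 lay at 4.95, 9.09 and 0.03 in MYC_OFF, 0.02, 0.07 and 0.07 in MYC_Twist1_OFF and 0.18, 0.34 and 0.48 in MYC_Recur, and Ccdc124 at 5.57, 0.55 and 0.84 in MYC_OFF, 0.39, 0.91 and 0.13 in MYC_Twist1_OFF and 0.99, 8.78 and 2.03 in MYC_Recur, all under the lowest MYC_HCC value of each gene. Npm1 was at 969, 97.95 and 49.9 in MYC_OFF, 299.97, 143 and 74.7 in MYC_Twist1_OFF and 364, 830.2 and 27169 in MYC_Recur, with 1 MYC_Recur library far above the rest.

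MYC_Twist1_OFF and MYC_OFF differ in the same label as the 2 tumor groups and share no library with them. In that pair limma called 0 of the 11958 genes, with 72 higher and 94 lower at an unadjusted p under 0.05, and no other tool was run on it. Of the 582 genes that rose in the tumors 400 were also higher in MYC_Twist1_OFF than in MYC_OFF (68.7%, against 58.0% of all tested genes), and of the 571 that fell 380 were lower (66.5%, against 41.6%). At an unadjusted p under 0.05, 26 of the 1153 tumor calls moved the same way and 5 the opposite way. None of them passed adjustment in this pair, and nothing is read from these counts. Gcnt1, Hspb7 and Erbb2 had log2 fold changes of 1.72, 1.76 and 1.32 in that pair, and Robo1, Foxa2 and Rps19 of 0.30, 0.25 and -0.14. None of these genes was called there.

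By chromosome, the share of tested genes that rose ran from 2.92% on chromosome 5 to 6.15% on chromosome 7, and the share that fell from 3.48% on chromosome 17 to 6.39% on chromosome 3, beside 4.78% and 4.94% of the 11240 genes with coordinates.

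The 25 symbols that are bare numbers lie between 42795 and 42993, with 23 distinct. Of these, 21 passed the filter, and 5 would have been called; they name no gene and are not interpreted.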
